A study of Mus musculus with 6 samples.

Results

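Mbp, Prx, Ncmap, Pmp22, Mag, Cldn19, Cnp and Gjb1 encode proteins of the myelin sheath, and their transcripts are commonly read as a sign of myelinating Schwann cells in peripheral nerve tissue. They were found by symbol in the authors' table of 23029 mouse genes, and all 8 had a row of their own. RNA was sequenced from cells of mouse dorsal root ganglia, where the somata of sensory neurons lie among glia and vessels, after fluorescence-activated sorting into 3 subsets. All animals had the genotype GINIP+/mcherry, in which the locus of GINIP carries an mCherry reporter, and the cells were also sorted by binding of isolectin B4 (IB4), a lectin that marks non-peptidergic nociceptors. DP cells were IB4+GINIP+ and are labelled as Mrgprd+ sensory neurons. C-LTMR cells were IB4-GINIP+ and are labelled as C-fibre low-threshold mechanoreceptors. DN cells were IB4-GINIP- and hold what remains, named in the labels both as remaining sensory neurons and as remaining cells.

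Each subset had 2 libraries (n = 2 in every mean ± SD), and the labels do not tie replicates to separate animals. A p-value here therefore reflects the spread between libraries only, and that spread may be technical. Values are RPKM as the authors deposited them, reads scaled by gene length and library size. Levels can be set side by side between genes only as far as the gene lengths used, which were not stated, are right. For Mbp the authors' values imply a length of about 2881 bases, against 8123 bases of annotated exons. For Ncmap they imply about 2237 bases, against 2146. The libraries were estimated to hold 32.3 to 42.0 M reads. The gene of GINIP, listed as N28178, was at 125 ± 6.46 RPKM in DP and 145 ± 5.98 RPKM in C-LTMR, against 16.2 ± 3.43 RPKM in DN. The label of DN as neurons covers its cells only in part, since markers of satellite glia such as Apoe (9314 ± 5097 RPKM in DN) and of endothelium such as Cldn5 (172 ± 63.9 RPKM in DN) were high there. Apoe was not confined to DN, at 685 ± 263 RPKM in DP and 1106 ± 485 RPKM in C-LTMR. Cldn5 was at 1.42 ± 0.552 RPKM in DP and 0.116 ± 0.0403 RPKM in C-LTMR. No sorted Schwann cells and no unsorted ganglia were among the samples, so the content of Schwann cell RNA can be described only relative to DN, and in these bulk samples fewer cells of a type and less RNA per cell cannot be told apart.

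Myelinating Schwann cells wrap the larger sensory axons in a sheath of compact membrane layers with channels of noncompact, cytoplasm-filled myelin between them. The axons of Mrgprd+ nociceptors and of C-LTMRs are unmyelinated and lie in bundles within nonmyelinating Schwann cells, while satellite glia cover the neuron's cell body. Of the 8 proteins, Mbp (myelin basic protein) and Pmp22 (a membrane protein whose gene dosage causes inherited demyelinating neuropathy in people) belong to compact myelin. Ncmap, Cldn19 (a claudin of tight junctions), Gjb1 (a connexin of gap junctions) and Cnp (a cyclic nucleotide phosphodiesterase) are found in noncompact myelin. Mag, an adhesion protein, faces the axon, and Prx (periaxin) lies in the outer membrane of the sheath, where it binds Drp2 and dystroglycan.

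The regulators Sox10, Egr2 and, with Yap and Taz, Tead1 are known to drive myelin genes in Schwann cells. Promoter windows are shown for the 4 members whose RefSeq start (GRCm38.p6) is the same base as the 5′ end of the row in the authors' table and that differ in their pattern across the sorts, Prx, Ncmap and Cldn19 being low in the GINIP+ subsets and Cnp being well measured there. Each window runs from 250 bases before the start to 50 bases after it. Capitals mark matches to ACAAAG (the core of Sox sites), GCGTGGG (the core of Egr sites) or GGAATG (the core of Tead sites) on either strand.
Prx, chr7:27499074-27499373, plus strand: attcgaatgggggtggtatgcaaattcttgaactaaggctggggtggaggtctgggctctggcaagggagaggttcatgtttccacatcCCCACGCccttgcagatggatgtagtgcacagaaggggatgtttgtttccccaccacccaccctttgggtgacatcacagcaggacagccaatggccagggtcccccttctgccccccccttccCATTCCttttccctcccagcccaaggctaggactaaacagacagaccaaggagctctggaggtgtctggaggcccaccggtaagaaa
Ncmap, chr4:135398178-135398477, minus strand: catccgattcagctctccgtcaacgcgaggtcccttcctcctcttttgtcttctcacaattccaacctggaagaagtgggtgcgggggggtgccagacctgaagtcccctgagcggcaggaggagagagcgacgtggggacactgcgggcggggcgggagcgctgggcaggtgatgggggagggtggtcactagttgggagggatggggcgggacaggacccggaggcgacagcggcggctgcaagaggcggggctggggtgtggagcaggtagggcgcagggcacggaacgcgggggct
Cldn19, chr4:119255191-119255490, plus strand: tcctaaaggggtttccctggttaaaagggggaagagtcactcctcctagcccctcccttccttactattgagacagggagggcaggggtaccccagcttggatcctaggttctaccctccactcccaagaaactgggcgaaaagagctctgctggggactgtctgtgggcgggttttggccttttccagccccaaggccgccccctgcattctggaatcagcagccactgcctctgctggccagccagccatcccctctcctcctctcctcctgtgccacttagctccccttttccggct
Cnp, chr11:100574689-100574988, plus strand: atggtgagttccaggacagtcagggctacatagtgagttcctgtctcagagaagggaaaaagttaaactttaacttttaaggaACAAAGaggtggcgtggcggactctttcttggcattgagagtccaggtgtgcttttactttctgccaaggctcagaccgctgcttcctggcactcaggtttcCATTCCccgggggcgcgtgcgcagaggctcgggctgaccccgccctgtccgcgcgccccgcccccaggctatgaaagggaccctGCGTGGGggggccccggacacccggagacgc
The Prx window held an Egr match at position -161 and a Tead match at -37, counted from the start base as 0. The Cnp window held a Sox match at -167, a Tead match at -65 and an Egr match at 19, and the windows of Ncmap and Cldn19 held none of the 3. Matches were frequent in the genome: 18.7% of all 32851 RefSeq promoter windows of this length held the Sox letters, 5.04% the Egr letters and 14.7% the Tead letters. A match describes the letters of the window and is not evidence of binding.

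Levels of the 8 genes fell into separate patterns. Prx, Ncmap, Cldn19, Mag and Gjb1 were at 0.726% to 4.30% of their DN level in DP, and in C-LTMR Prx and Ncmap were at 0.636% and 1.68% while the others were at or near the limit of detection. Mbp and Cnp were lower than in DN but remained well measured in every library. Pmp22 was the most abundant of the 8 in all 6 libraries and did not follow the others.

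**Figure D1:**
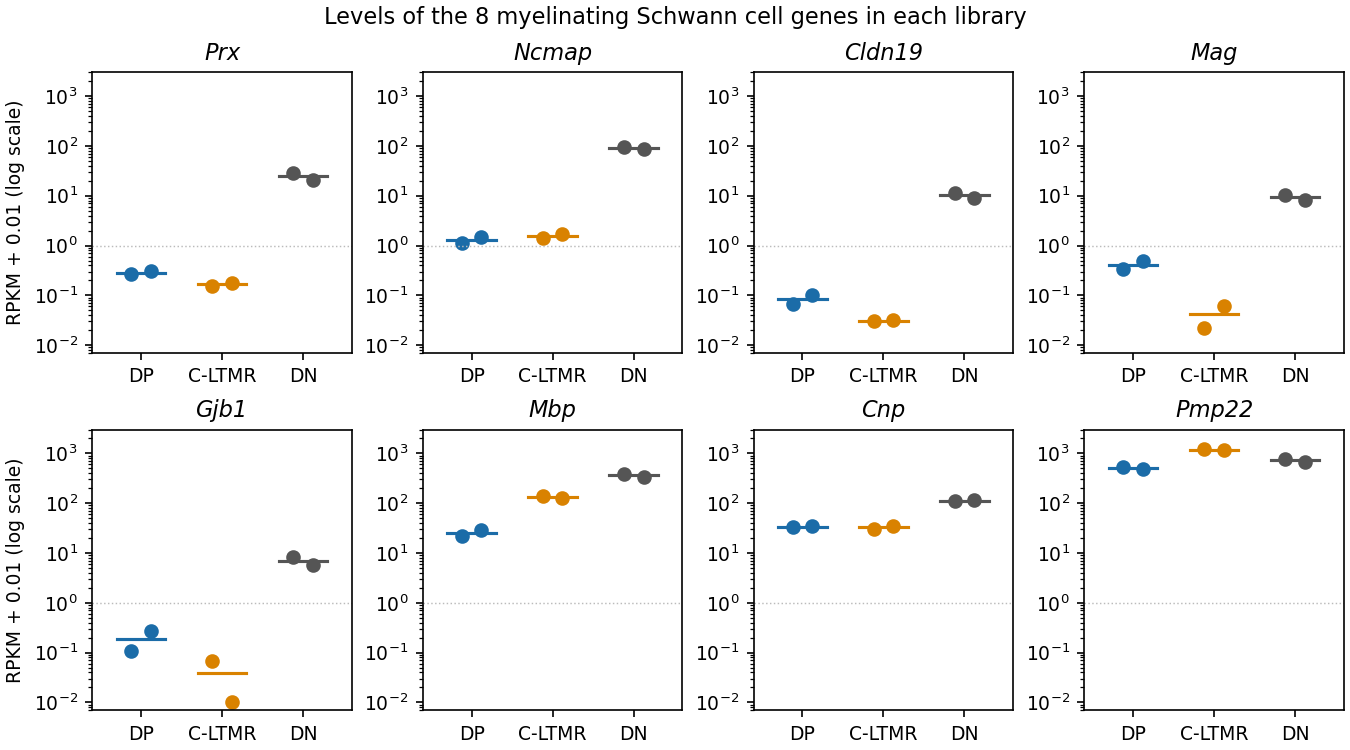
RPKM of each of the 8 genes in each library, with 0.01 added and drawn on a log axis. Points are libraries, horizontal bars are subset means (n = 2), and the dotted line marks an RPKM of 1; Prx, Ncmap, Cldn19, Mag and Gjb1 are far above their GINIP+ levels in DN, while Cnp, Mbp and Pmp22 are above 20 RPKM in every library.

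Prx (Entrez 19153, chromosome 7, 27499324 to 27520041) was read at 0.256 and 0.298 RPKM in DP and at 0.142 and 0.171 RPKM in C-LTMR, against 28.3 and 20.8 RPKM in DN. Every GINIP+ library was under 0.3 RPKM, far below either DN library. The mean was 88.7-fold lower in DP than in DN and 157-fold lower in C-LTMR than in DN. On the log2(RPKM + 0.5) scale, which understates changes of low genes, the change of Prx was -4.995 in DP over DN (SE 0.165, limma BH-adjusted p = 3.54e-06, BH being Benjamini-Hochberg) and -5.24 in C-LTMR over DN (SE 0.165, limma BH-adjusted p = 2.9e-06).

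Ncmap (Entrez 230822, chromosome 4, 135369577 to 135398227) had the most transcript of these 5 genes. It was at 1.13 and 1.46 RPKM in DP and at 1.40 and 1.66 RPKM in C-LTMR, against 94.0 and 88.4 RPKM in DN. The DP and C-LTMR libraries overlapped each other and stood 70.5-fold and 59.6-fold below DN in their means. The log2 fold change was -5.68 in DP over DN (SE 0.133, limma BH-adjusted p = 1.77e-06) and -5.50 in C-LTMR over DN (SE 0.133, limma BH-adjusted p = 1.37e-06).

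Cldn19 (Entrez 242653, chromosome 4, 119255441 to 119262438) was at 0.0561 and 0.0922 RPKM in DP and at 0.0204 and 0.0219 RPKM in C-LTMR, against 11.4 and 9.05 RPKM in DN. The values of each C-LTMR library correspond to about 3 reads, a floor at or near which no fold between means is given here. In DP, where the values correspond to about 10.1 and 15.1 reads, the mean was 138-fold lower than in DN.

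Mag (Entrez 17136, chromosome 7, 30899183 to 30914832) was at 0.325 and 0.471 RPKM in DP and at 0.0120 and 0.0510 RPKM in C-LTMR, against 10.3 and 8.20 RPKM in DN. In DP the mean was 4.30% of the DN mean, the highest share among the 5 genes of this pattern. The C-LTMR values correspond to about 1 and 4 reads per library, so that Mag was barely detectable there.

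Gjb1 (Entrez 14618, chromosome X, 101377337 to 101385624) was at 0.0953 and 0.262 RPKM in DP and at 0.0586 and 0 RPKM in C-LTMR, against 8.22 and 5.68 RPKM in DN. It was the least abundant of the 8 in DN, and its DP libraries differed 2.75-fold from each other at about 6.8 and 17.1 reads. A count of 0 in the C-LTMR replicate 2 library allows a level of up to 0.0544 RPKM, the value of 3 reads, for counting error only.

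The fitted log2 changes of Cldn19, Mag and Gjb1 were -4.21, -3.44 and -3.45 in DP over DN (limma BH-adjusted p = 3.97e-06, 9.17e-06 and 2.33e-05) and -4.35, -4.19 and -3.80 in C-LTMR over DN (3.55e-06, 4.67e-06 and 1.57e-05 as limma BH-adjusted p). All 3 were called lower than in DN in both GINIP+ subsets, but the size of these changes depends on the 0.5 added to each value and is no bound on the fold. Genes were tested at 1 RPKM or more in at least 2 libraries, which these 3 and Prx reached only through DN. Their direction was thus fixed, and their calls and p-values are descriptions.

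Mbp (Entrez 17196, chromosome 18, 82475123 to 82585637) was at 22.4 and 28.5 RPKM in DP and at 141 and 125 RPKM in C-LTMR, against 391.9 and 339.6 RPKM in DN. The 3 subsets did not overlap, with DP lowest, C-LTMR between and DN highest. Mbp stood at 6.95% of the DN mean in DP and at 36.3% in C-LTMR. Its log2 fold change was -3.83 in DP over DN (SE 0.141, limma BH-adjusted p = 4.62e-06) and -1.46 in C-LTMR over DN (SE 0.141, limma BH-adjusted p = 0.000166). The row spans the whole locus, whose upstream promoter gives the golli transcripts known from neurons and immune cells as well as from glia, and the table does not separate these from the classic myelin transcripts, so their part in the level was not tested.

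Cnp (Entrez 12799, chromosome 11, 100574939 to 100581739) was at 32.5 and 34.7 RPKM in DP and at 30.4 and 34.4 RPKM in C-LTMR, against 111 and 114 RPKM in DN. The GINIP+ libraries overlapped one another and all were below DN, with means at 29.9% of DN in DP and 28.8% in C-LTMR. The log2 fold change was -1.73 in DP over DN (SE 0.0946, limma BH-adjusted p = 1.55e-05) and -1.78 in C-LTMR over DN (SE 0.0946, limma BH-adjusted p = 1.35e-05).

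Pmp22 (Entrez 18858, chromosome 11, 63131510 to 63159546) was at 521 and 483 RPKM in DP and at 1203 and 1166 RPKM in C-LTMR, against 768 and 680 RPKM in DN. The subsets did not overlap, and the order was C-LTMR, then DN, then DP. The log2 fold change was -0.53 in DP over DN (SE 0.102, limma BH-adjusted p = 0.00405), which missed the fold criterion for a call. In C-LTMR over DN it was 0.71 (SE 0.102, limma BH-adjusted p = 0.00106), also short of the criterion, and its direction turned to -0.34 when libraries were rescaled to the median of pan-sensory-neuron genes. Pmp22 levels of 483 to 1203 RPKM in the GINIP+ libraries stood beside Prx, Cldn19, Mag and Gjb1 at under 0.5 RPKM in the same libraries.

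A gene was called when its adjusted p was under 0.05 and its log2 fold change was 1 or more in size, in a fit over 12386 genes with at least 1 RPKM in at least 2 libraries. All 8 members passed this filter, but Prx, Mag, Cldn19 and Gjb1 passed only through DN and so had to differ, which makes their count, calls and p-values descriptions. The same limit holds below for each list in which genes reached 1 RPKM in 2 libraries only by counting DN. In DP over DN, 7 of 8 were called lower and none higher, where 27.9% of all genes tested were called, 6.80% higher and 21.1% lower. In C-LTMR over DN, 7 of 8 were called lower and none higher, where 26.8% of genes were called, 7.52% higher and 19.3% lower. The exception was Pmp22 in both comparisons, so of the 4 members that passed without DN, 3 were called lower in each. Without regard to calls, both DP libraries were below both DN libraries in 8 of 8 members and above in none, where 50.2% and 33% of all genes were. For the 4 members that passed only through DN, the filter had fixed this order in DP and in C-LTMR. Both C-LTMR libraries were below both DN libraries in 7 of 8 members, where 43.8% of all genes were, and above them for Pmp22, where 37% of all genes were. The median log2 fold change of the 8, including the 4 fixed by the filter, was -3.64 in DP over DN and -3.99 in C-LTMR over DN, against -0.14 and -0.04 over all genes tested. Both comparisons use the same DN libraries. Scaling altered the split of calls over all genes: with quantile normalization 44.2% of the calls in DP over DN and 45.6% of those in C-LTMR over DN were higher, against 24.3% and 28.1% as deposited, and after rescaling to the median of pan-sensory-neuron genes the shares were 7.90% and 6.31%, while the 7 members stayed called lower in each of these settings.

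**Figure D2:**
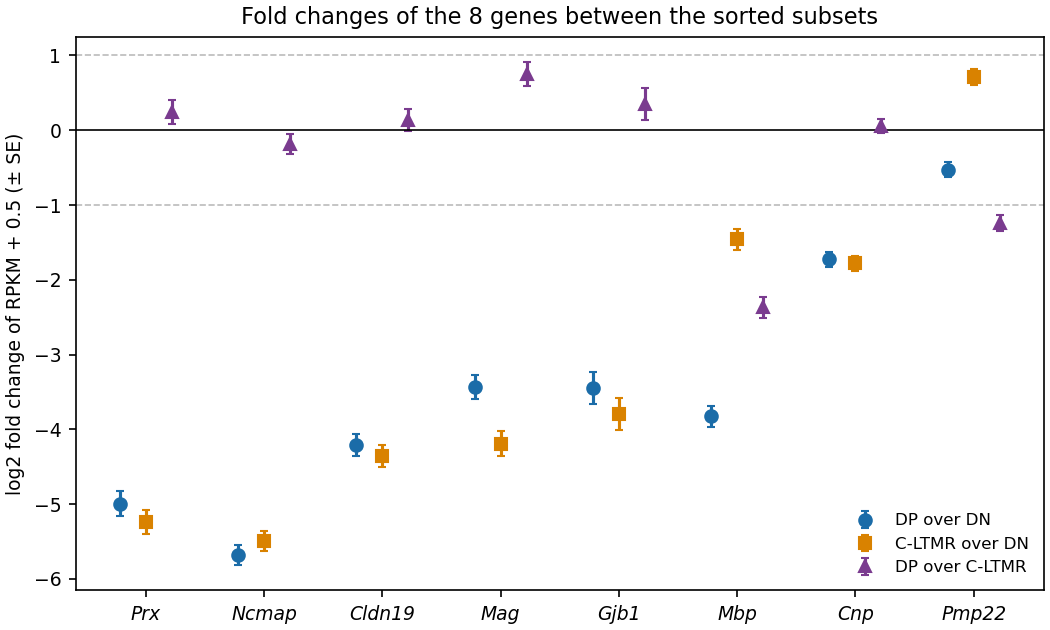
log2 fold change of RPKM + 0.5 for each gene in DP over DN (circles), C-LTMR over DN (squares) and DP over C-LTMR (triangles), with the limma standard error. Dashed lines mark a log2 fold change of 1 in either direction. With 0.5 added, Ncmap and Prx lie at -5.68 and -4.995 in DP over DN, and Pmp22 lies nearest 0, at -0.53 in DP over DN and 0.71 in C-LTMR over DN, where rescaling to the median of pan-sensory-neuron genes turned the sign to -0.34.

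Between the GINIP+ subsets, Mbp and Pmp22 were lower in DP than in C-LTMR, and the other 6 genes were not called. In this comparison 11.7% of all genes were called, 4.66% higher and 7.01% lower. Mbp was 5.22-fold lower in DP than in C-LTMR (-2.37 on the log2 scale with SE 0.141, limma BH-adjusted p = 6.42e-05). Pmp22 was 2.36-fold lower in DP than in C-LTMR (-1.24 on the log2 scale with SE 0.102, limma BH-adjusted p = 0.000214), a call that was lost after rescaling to the median of pan-sensory-neuron genes (-0.96, limma BH-adjusted p = 0.496). That rescaling multiplied DN replicate 1 by 1.03 and DN replicate 2 by 2.25. The p-value uses a spread shared by all 6 libraries, so it also reflects this gap between the DN libraries. Mag averaged 0.398 ± 0.103 RPKM in DP and 0.0315 ± 0.0276 RPKM in C-LTMR, and its log2 fold change of 0.75 (SE 0.161, limma BH-adjusted p = 0.0131) fell short of the fold criterion with 0.5 added to each value. With 0.1 added it was 1.92 (limma BH-adjusted p = 0.00185) and was called higher in DP, but the C-LTMR values rest on about 1 and 4 reads. Prx (0.24, SE 0.165), Gjb1 (0.35, SE 0.210), Cldn19 (0.14, SE 0.149, -0.02 with quantile normalization), Cnp (0.05, SE 0.0946, -0.04 without C-LTMR replicate 1) and Ncmap (-0.18, SE 0.133, 0.02 after the rescaling to pan-sensory-neuron genes) had limma BH-adjusted p-values between 0.263 and 0.723. Both DP libraries were above both C-LTMR libraries in 4 of the 8 genes, where 31.2% of all genes tested were, and below both in 2, where 40.7% of all genes tested were. The 4 were Prx, Mag, Cldn19 and Gjb1, the genes that had passed the filter only through DN. Mag, Cldn19 and Gjb1 rest on 0 to 4 reads per C-LTMR library, so their order describes values at or near the floor.

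As a measure of the RNA of myelinating Schwann cells in each sort, the result depended on which genes were used. The sum over all 8 was 563 ± 20.3 RPKM in DP and 1352 ± 34.0 RPKM in C-LTMR, against 1344 ± 111 RPKM in DN, so DP stood at 41.9% of DN and C-LTMR at 100.6%. These shares depended on scaling: they were 23.3% in DP and 46.1% in C-LTMR after rescaling to the median of pan-sensory-neuron genes, and 32.2% and 71.7% when the median ratio over those genes was used. Pmp22 alone made up 88.0% to 90.2% of the sum in DP and 87.5% to 87.8% in C-LTMR, against 53.7% to 54.0% in DN. Without Pmp22 the sum was 61.2 ± 6.38 RPKM in DP and 167 ± 7.95 RPKM in C-LTMR, against 620 ± 48.6 RPKM in DN. For the 5 genes Prx, Ncmap, Mag, Cldn19 and Gjb1 together it was 1.86 and 2.58 RPKM in DP and 1.63 and 1.90 RPKM in C-LTMR, against 152 and 132 RPKM in DN. The 5-gene sum, a grouping made after the levels were seen, was thus at 1.56% of DN in DP and 1.24% in C-LTMR, with overlapping DP and C-LTMR libraries, and Ncmap supplied most of it.

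Proportions between the genes differed in the same way, as ratios of levels within a library. Mbp exceeded Ncmap 19.9-fold and 19.5-fold in the DP libraries and 100.4-fold and 75.3-fold in the C-LTMR libraries, against 4.17-fold and 3.84-fold in the DN libraries. Cnp exceeded Ncmap 28.9-fold and 23.7-fold in DP and 21.7-fold and 20.7-fold in C-LTMR, against 1.18-fold and 1.29-fold in DN. Prx was at 0.228 and 0.204 of Ncmap in DP and at 0.101 and 0.103 of Ncmap in C-LTMR, against 0.301 and 0.236 in DN. Pmp22 exceeded Ncmap 463-fold and 331-fold in DP and 859-fold and 702-fold in C-LTMR, against 8.17-fold and 7.69-fold in DN. In every GINIP+ library Mbp, Cnp and Pmp22 thus stood higher over Ncmap than in either DN library, and Prx stood lower.

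Other proteins of myelin were lower in both GINIP+ subsets, as were most regulators of Schwann cells. All 9 further myelin protein genes examined were called lower in DP and in C-LTMR than in DN, where 21.1% and 19.3% of all genes were. The 9 had median levels of 7.26% and 9.04% of DN. Of these, Gldn and Pmp2 passed the filter only through DN and had to be lower, and the other 7 passed without it. Cadm4, an adhesion protein by which the Schwann cell meets the axon, was at 5.65 ± 0.0248 RPKM in DP and 6.19 ± 1.01 RPKM in C-LTMR, against 23.0 ± 3.54 RPKM in DN. Mal, a raft proteolipid, was at 30.8 ± 0.670 RPKM in DP and 10.6 ± 1.42 RPKM in C-LTMR, against 86.5 ± 17.4 RPKM in DN. It was the member of the list with the highest share of DN in DP, at 35.6%, and Pllp (-1.53, lower in DP) was called in the opposite direction to Mal (1.51) and Gjc3 (1.38) between DP and C-LTMR.

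Of 14 tested regulators of Schwann cell development, 13 were called lower than in DN in DP and 13 in C-LTMR, where 21.1% and 19.3% of all genes were. Passing the filter only through DN largely set the direction of 6 of the 14. Among the 8 that passed without it, 7 were called lower in each comparison. Egr2, the zinc finger factor required for peripheral myelination, was at 16.5 ± 3.52 RPKM in DP and 8.50 ± 4.39 RPKM in C-LTMR, against 105 ± 36.3 RPKM in DN. Sox10, the factor that all Schwann and satellite cells need, was at 3.57 ± 0.292 RPKM in DP and 1.97 ± 0.879 RPKM in C-LTMR, against 21.4 ± 6.91 RPKM in DN. Jun, an injury-induced factor also used by neurons, and Dhh, a ligand from Schwann cells, were at 21.8% and 30.9% of DN in DP and at 11.1% and 17.8% of DN in C-LTMR. The list's median level was 15.6% of DN in DP and 10.02% in C-LTMR. The 8 members had medians of 3.44% and 1.16%. Among them Cnp and Pmp22 were above the regulators' median in both subsets, and Mbp was above it in C-LTMR. Nab1, a cofactor of Egr proteins, was the gene not called in either comparison.

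Genes of myelin lipid synthesis did not move together. Of 20 tested, 1 was called higher and 3 lower in DP over DN, and none higher and 2 lower in C-LTMR over DN. Over all genes tested the shares were 6.80% higher and 21.1% lower in DP over DN, and 7.52% and 19.3% in C-LTMR over DN. Ugt8a, which makes galactosylceramide, was at 0.190 ± 0.110 RPKM in DP and 0.207 ± 0.121 RPKM in C-LTMR, against 8.72 ± 0.281 RPKM in DN. Fa2h, which hydroxylates its fatty acids, was at 0.00954 and 0.01047 RPKM in DP and at 0.01149 and 0.01243 RPKM in C-LTMR, against 4.60 ± 0.197 RPKM in DN. Ugt8a was thus at 2.18% of its DN level in DP and 2.37% in C-LTMR, and both Fa2h and Ugt8a, enzymes of the myelin galactolipids, were called lower, a direction that their passing the filter only through DN had fixed. Among 8 genes of inherited demyelinating neuropathy, 5 were called lower and 1 higher in each comparison with DN, 3 of the 8 having passed only through DN. Ndrg1 was at 25.6 ± 4.03 RPKM in DP and 21.7 ± 9.94 RPKM in C-LTMR, against 232 ± 47.7 RPKM in DN, and the gene that was higher was Fig4, a phosphoinositide phosphatase, at 40.4 ± 1.56 RPKM in DP and 26.4 ± 0.887 RPKM in C-LTMR, against 11.9 ± 0.951 RPKM in DN.

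Of 14 genes of the Schwann cell basal lamina and its receptors, 9 were called lower in DP over DN with 1 higher, and 9 lower in C-LTMR over DN with none higher, 2 of the 14 having passed only through DN. For this list and those that follow, 21.1% of all genes were called lower and 6.80% higher in DP over DN. In C-LTMR over DN the shares were 19.3% and 7.52%. Dag1, the dystroglycan that the periaxin complex binds, was at 7.58 ± 0.341 RPKM in DP and 5.29 ± 0.793 RPKM in C-LTMR, against 22.8 ± 2.34 RPKM in DN. Of 8 tested genes of nonmyelinating and immature Schwann cells, 5 were called lower in DP over DN, and 3 lower and 1 higher in C-LTMR over DN. Several of these are also made by neurons: Ngfr, the p75 neurotrophin receptor, was at 8.80 ± 0.982 RPKM in DP and 59.0 ± 4.70 RPKM in C-LTMR, against 71.5 ± 25.8 RPKM in DN. The gene higher in C-LTMR was the sodium channel gene Scn7a, at 50.2 ± 5.36 RPKM, against 17.5 ± 4.02 RPKM in DN. Of 16 axonal partners of myelin, proteins with which the axon meets the sheath, 2 were called higher and 3 lower in DP over DN, and 7 higher and 1 lower in C-LTMR over DN. Of 9 tested markers of myelinated neurons, the cells whose axons these sheaths enclose, 2 were called higher and 3 lower than in DN in each GINIP+ subset, with Ntrk3 higher in both and Ntrk2 and Spp1 lower in both. Ank3, the ankyrin that anchors channels at nodes of Ranvier, was at 22.3 ± 4.08 RPKM in DP and 23.1 ± 3.33 RPKM in C-LTMR, against 7.76 ± 1.24 RPKM in DN.

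Oligodendrocytes, the myelinating cells of the brain and spinal cord, share Mbp, Mag and Cnp with Schwann cells. Of their 11 listed markers, 8 stayed under 1 RPKM in every library, Olig2 was listed at 0 in all 6, and Mog did not exceed 0.0182 RPKM. The 3 others were Aspa, Cldn11 and Nkx6-2, and the first of these was at 9.16 ± 0.671 RPKM in DP and 5.07 ± 2.36 RPKM in C-LTMR, against 55.2 ± 28.5 RPKM in DN.

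**Figure D3:**
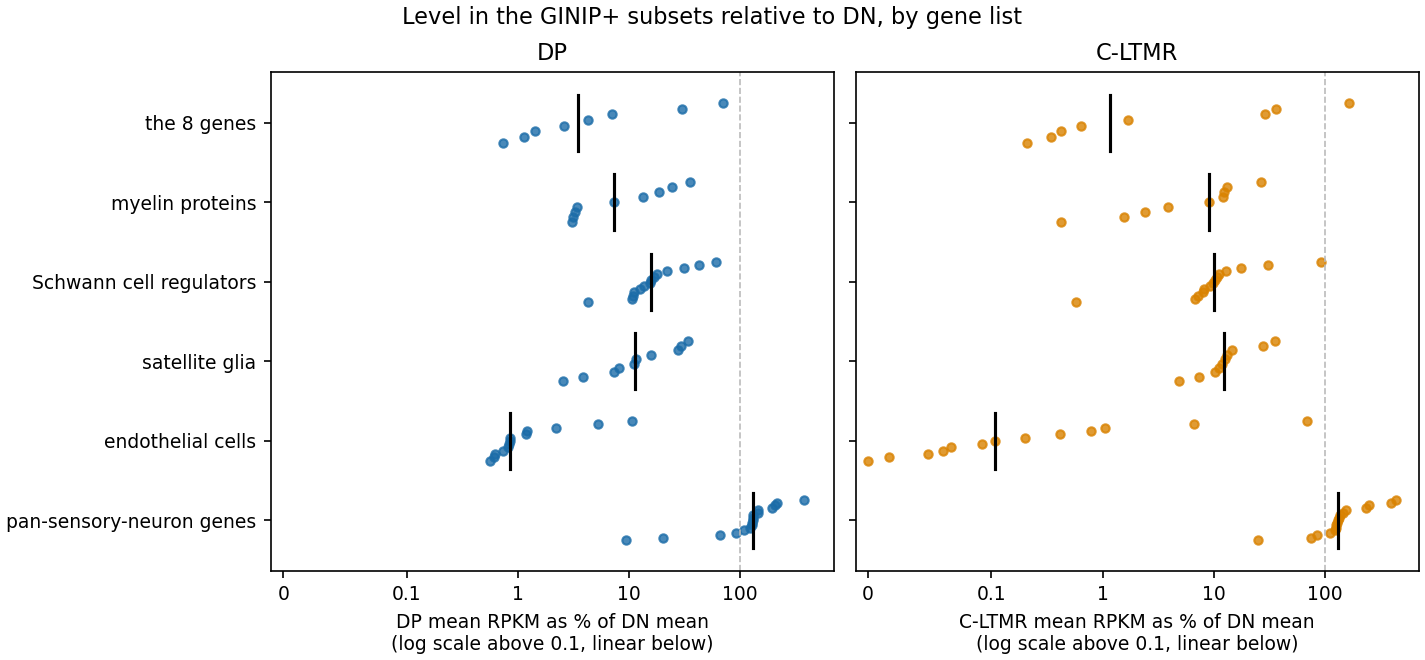
Mean RPKM in DP (left) and in C-LTMR (right) as a percentage of the mean in DN, for each tested gene of 6 lists, on an axis that is logarithmic above 0.1 and linear below; vertical bars are list medians and the dashed line marks 100%. The 8 genes run from 0.726% (Cldn19) to 69.4% (Pmp22) in DP and up to 163.7% (Pmp22) in C-LTMR, where Cldn19, Mag and Gjb1 rest on 0 to 4 reads per library and Pmp22 was below DN after rescaling to the median of pan-sensory-neuron genes (log2 fold change -0.34).

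Markers of other cells also differed between the sorts, not all in the direction of the 8 genes, and their part in these results was not tested. Calls over all genes were 6.80% higher and 21.1% lower in DP over DN, and 7.52% and 19.3% in C-LTMR over DN. All 10 satellite glia markers, of which 1 had passed only through DN, were called lower than in DN in both GINIP+ subsets, with summed levels of 732 and 1241 RPKM in DP and 1070 and 2001 RPKM in C-LTMR, against 7372 and 17041 RPKM in DN. Of 13 endothelial markers, 10 passed the filter only through DN, which largely set their direction. Of the other 3, all were called lower in DP and 2 in C-LTMR. The sums of the 13 were 14.6 and 11.0 RPKM in DP and 53.4 and 52.0 RPKM in C-LTMR, against 469 and 782 RPKM in DN. Egfl7 alone made up 46.9 and 47.0 RPKM of the C-LTMR sums. Between DP and C-LTMR, Cldn5 and Ly6c1 were called higher in DP, Egfl7 and Esam lower, and the other 9 were not called. In that comparison 4.66% of all genes were called higher and 7.01% lower. Satellite glia markers were at median levels of 11.3% of DN in DP, where the lowest was at 2.54%, and 12.3% in C-LTMR. The 8 members ran from 0.726% to 69.4% in DP with a median of 3.44%, and 4 of them had passed only through DN. Markers of pericytes and fibroblasts were called lower in 6 of 8 (DP over DN) and 7 of 8 (C-LTMR over DN), 2 having passed only through DN, and Pdgfrb was not called in DP, at 4.05 ± 0.168 RPKM in DP, against 2.73 ± 0.677 RPKM in DN. Of 5 tested immune markers, 3 of which passed only through DN, 1 was called lower in DP over DN and 4 in C-LTMR over DN, and the sum of the 9 in the table was at 80.4% of DN in DP. Lyz2, a lysozyme of myeloid cells, was at 32.0 ± 3.20 RPKM in DP and 0.131 ± 0.143 RPKM in C-LTMR, against 16.4 ± 3.46 RPKM in DN, and was called higher in DP than in C-LTMR. It made up 34.3 and 29.8 RPKM of the immune sums of 43.2 and 40.9 RPKM in DP. In DN it made up 13.9 and 18.8 RPKM of 39.7 and 65.0 RPKM. The share of 80.4% thus rests mostly on Lyz2. The defining endothelial gene Cdh5 was at 0.0894 and 0.0262 RPKM in DP and at 0.00733 and 0.00777 RPKM in C-LTMR, against 4.76 and 9.38 RPKM in DN. Pan-sensory-neuron genes summed to 10086 and 9755 RPKM in DP and 10009 and 9754 RPKM in C-LTMR, against 9208 and 6845 RPKM in DN. Of the 17 tested, 3 were called higher and 2 lower in DP over DN, and 4 higher and 1 lower in C-LTMR over DN.

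The 2 libraries of DN differed in marker RNA of glia and neurons, and in RPKM most of the 8 genes were lower in the library in which satellite glia markers were higher. In DN replicate 2, 7 of the 8 were lower than in replicate 1, the exception being Cnp, where 56.4% of all genes tested were lower. The log2 difference of replicate 2 from replicate 1 was -0.50 for Gjb1, -0.43 for Prx, -0.32 for Cldn19, -0.31 for Mag, -0.21 for Mbp, -0.17 for Pmp22, -0.09 for Ncmap and 0.05 for Cnp, while the median size of that difference over all genes was 0.186. For Gjb1, 12.0% of all genes tested differed more, and for Ncmap 74.7% did. None of these differences has a replicate of its own.

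Satellite glia markers went the other way: 10 of 10 were higher in DN replicate 2, S100b by a ratio of 1.01, and their sum was 2.31 times that of replicate 1. All 13 endothelial markers and 8 of 8 markers of pericytes and fibroblasts were also higher in DN replicate 2, as were 13 of 14 Schwann cell regulators, whereas 0 of 17 pan-sensory-neuron genes and 0 of 16 axonal partners of myelin were. Further myelin proteins were divided, with 5 of 9 higher. Set per 1000 RPKM of pan-sensory-neuron genes, the 5-gene sum was 0.184 and 0.265 in DP and 0.163 and 0.195 in C-LTMR, against 16.5 in DN replicate 1 and 19.3 in DN replicate 2, so on this scale the DN library with more satellite glia RNA was the higher one, and the order of the DN libraries turned with the scale used.

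**Figure D4:**
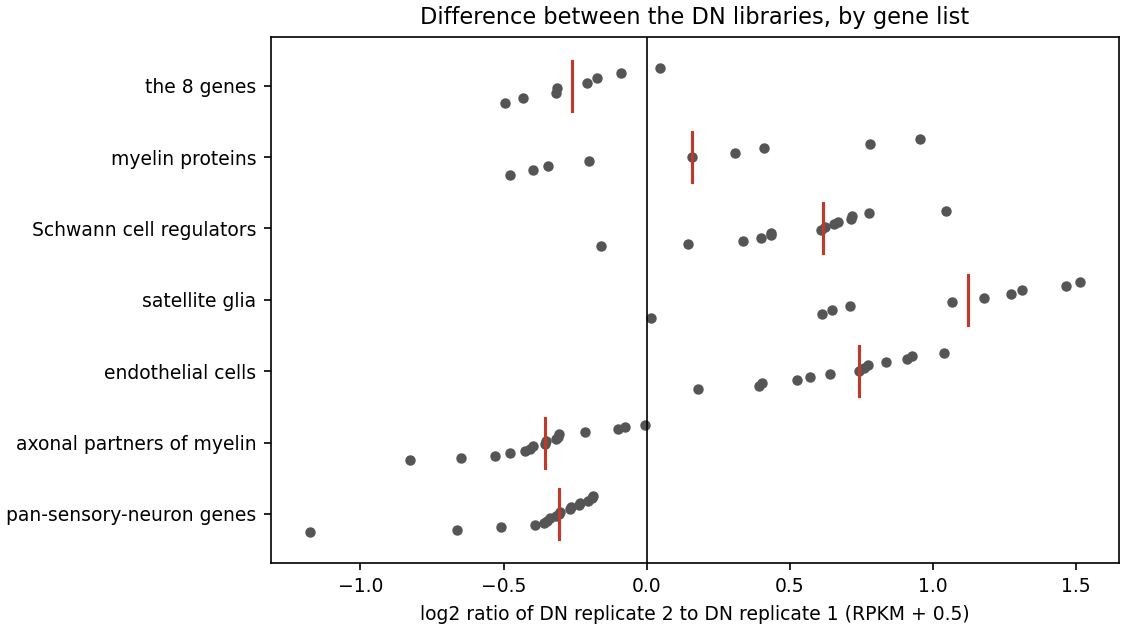
log2 ratio of DN replicate 2 to DN replicate 1 (RPKM + 0.5) for each tested gene of 7 lists; red bars are list medians. Of the 8 genes 7 lie left of 0, between -0.50 and -0.09, all 10 satellite glia markers and all 13 endothelial markers lie right of 0, and all 17 pan-sensory-neuron genes lie left of 0.

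In DP, 7 of the 8 genes were higher in replicate 2, Pmp22 being lower, where 55.8% of all genes were higher in replicate 2. Mbp differed by 0.34 and Gjb1 by 0.36 on the log2(RPKM + 0.5) scale, and 6.31% and 5.85% of all genes tested differed more. Satellite glia markers moved the same way, with 9 of 10 higher in DP replicate 2 and a sum 1.70 times that of replicate 1. In C-LTMR 5 members were higher and 3 lower in replicate 2, where 51.7% of all genes were higher. Mag and Cldn19 among the higher and Gjb1 among the lower rest on 0 to 4 reads per library, too few to give a direction. There too satellite glia markers were higher in replicate 2, in 8 of 10 with a sum 1.87 times that of replicate 1, as were 13 of 14 Schwann cell regulators, so the sum of satellite glia markers was higher in replicate 2 of all 3 subsets. Across genes, which are not independent replicates, the log2 values of a subset's libraries correlated at 0.9962 (DP), 0.9943 (C-LTMR) and 0.9861 (DN).

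Among the other genes tested, the 10 whose centred log2 profile over the 6 libraries lay nearest to the median profile of the 8 were Pth1r, Clmp, Pip5k1b, Fxyd7, Fam20a, Serpinb8, H19, Cnih3, Emid1 and Mpped1, at root mean square distances of 0.122 to 0.184. Pth1r was at 0.767 and 1.13 RPKM in DP and at 0.699 and 0.530 RPKM in C-LTMR, against 21.3 and 17.0 RPKM in DN. Fxyd7 had the highest levels of the 10, with 18.5 and 24.2 RPKM in DP and 20.1 and 17.3 RPKM in C-LTMR, against 404 and 289 RPKM in DN. H19 was listed at 0 in all 4 GINIP+ libraries, against 5.98 and 4.98 RPKM in DN. Of the members, Gjb1 (0.119), Mag (0.222) and Cldn19 (0.245) lay nearest to that median profile, while Cnp (0.979), Mbp (1.20) and Pmp22 (1.94) lay farthest.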

How the data were processed

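The authors deposited RPKM values of 23029 genes and a TMM-normalized signal (counts brought to a common library size) of 6620 genes. The submitters' processing notes name CASAVA 1.8.2, edgeR 2.6.2 and GRCm38 (mm10), but not which step each made, and the aligner, annotation and strand setting were not stated. Per the labels' protocols, 50 ng of RNA was amplified before TruSeq library preparation. The RPKM table was used because the TMM-normalized table holds 6 of the 8 members. Depth (32.3 to 42.0 M reads) was estimated from steps in low RPKM values and read numbers from it and exon lengths, so both are approximate, cover counting error only and allowed no count model. Genes with at least 1 RPKM in at least 2 libraries (12386) were fitted as log2(RPKM + 0.5) with limma 3.58.1 in R 4.3.3 (lmFit, contrasts.fit, eBayes with a trend, all 6 libraries, no covariate), and p-values were BH-adjusted over all of them. The fit was tested on simulated data. Python 3.11.15, numpy 2.4.6, pandas 2.3.3 and matplotlib 3.10.9 served for summaries and plots. The members and gene lists were chosen with earlier results of these data known. Named were all members, at most 4 called genes per list with the highest mean RPKM, a defining marker listed at 0, and the 10 genes nearest to the members' profile. Some list genes that this rule selects are not reported here. Nab1, Mog and Cdh5, outside that rule, were named after their values were seen. Alternatives were other pseudocounts, no filter, other scalings, the TMM-normalized table, a replicate block, a fit of 4 libraries and leaving out each library.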

Additional observations from a re-analysis of the deposited data

How the results depend on the processing

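The 24 log2 fold changes of the 8 genes were recomputed under up to 16 settings, giving 378 values, of which 371 kept their direction and their side of the threshold. The 4 that reversed were Pmp22 in C-LTMR over DN (-0.34) and Ncmap in DP over C-LTMR (0.021), both after rescaling to the median of pan-sensory-neuron genes, Cldn19 in DP over C-LTMR with quantile normalization (-0.017) and Cnp in DP over C-LTMR without C-LTMR replicate 1 (-0.036). Pmp22 in DP over DN was called after that rescaling (-1.30, limma BH-adjusted p = 0.0365). The rescaling multiplied DN replicate 2 by 2.25 and DN replicate 1 by 1.03. A version by the median ratio over the same genes, chosen after seeing the data, gave factors of 1.34 and 1.09 and left Pmp22 at 0.22 in C-LTMR over DN. The median log2 fold change of all genes in DP over DN and C-LTMR over DN was 0.13 and 0.14 with quantile normalization, -0.86 and -1.02 after rescaling to the median and -0.49 and -0.50 after rescaling by the median ratio. Without 1 library, 3337 to 3663 genes were called in DP over DN, 3093 to 3584 in C-LTMR over DN and 1344 to 1452 in DP over C-LTMR, against 3458, 3322 and 1445, and the members called stayed at 7, 7 and 2; a subset left with 1 library was assumed to vary like the others. The TMM-normalized table, which lists fewer genes, gave 1645, 1562 and 843 called genes. The rescaling to the median gave 5551 in C-LTMR over DN and 742, with 1 member, in DP over C-LTMR; the cause was not tested. The summed level of the 8 genes was 503 RPKM (DP), 994 RPKM (C-LTMR) and 2157 RPKM (DN) after rescaling to the median, and 522, 1163 and 1622 after rescaling by the median ratio. It was 538, 1219 and 978 without Mbp, 61.2, 167 and 620.3 without Pmp22, and 2.22, 1.77 and 142 without Mbp, Pmp22 and Cnp, and 1440 in C-LTMR with quantile normalization. Leaving out a library gave sums of 549 to 578 (DP), 1328 to 1376 (C-LTMR) and 1266 to 1422 (DN). With a replicate block, 3466, 3324 and 1462 genes were called and the same numbers of members, 7, 7 and 2; replicate differences correlated across genes with r = 0.504 (DP and C-LTMR), 0.133 (DP and DN) and 0.343 (C-LTMR and DN), and the labels tie the replicate numbers to no shared animal or day. The sum of the 8 genes in the TMM-normalized table was not run, since 2 of them are not listed there. Depth limits Cldn19, Mag and Gjb1 in C-LTMR, at 0 to 4 reads per library.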
